A study of Sus scrofa with 16 samples.

Results

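The genes described here code for the proteins of the cytosolic ribosome, measured by RNA sequencing in the pituitary gland of 16 pigs. Members were the rows of the deposited results table with a symbol of the RPL or RPS series, RPSA or RPLP0 to RPLP2, joined by Ensembl gene identifier to the deposited counts. The rule found 52 genes with 51 symbols among the 25880 genes counted, since RPS21 was listed at 2 loci. Of the members, 24 belong to the small (40S) subunit and 28 to the large (60S) subunit, and 48 of the 79 subunit protein symbols of a textbook list were among them. A further 23 symbols of that list were found among 29 ribosomal protein genes that the rule did not take, and the other 8 were not analysed here.

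A cytosolic ribosome reads messenger RNA in its small subunit and joins amino acids in its large subunit. Each subunit needs 1 copy of nearly every one of its proteins, and cells keep the supply of these proteins balanced. The messenger RNAs carry a terminal oligopyrimidine tract at their 5′ end, through which the TOR kinase pathway controls their translation more than their abundance. In the anterior pituitary, ribosomes make large amounts of secreted hormones such as growth hormone and prolactin.

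Puławska is a native Polish breed, and the 16 gilts, drawn from several herds with no kinship between them, were fed and tested at a single station. Of these, 8 gilts with a low feed conversion ratio (LFC, replicates 1 to 8) were compared with 8 gilts of a high ratio (HFC, replicates 9 to 16), where a high ratio means more feed for each unit of weight gained. The groups were set by this measured trait and not by a treatment or a genetic change. The labels give an age of 3 months for all 16 pigs, which differs from the age in the study's methods. Whole glands were homogenised, so a library can mix the anterior and the posterior lobe, in proportions that were not measured.

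Libraries held between 10972583 and 23060458 counts. Genes of the anterior hormones took 14.5% ± 3.12 of the counts in LFC and 14.6% ± 4.66 in HFC (SD, n = 8 each). The near-equal sums hid opposite directions within the list. POMC alone took 2.5% ± 1.64 in LFC and 6.51% ± 6.44 in HFC. Of the 6 hormone genes tested, 1 (POMC) was higher in HFC, 5 were lower and 0 were called. Markers of pituicytes and glia, the resident cells of the posterior lobe, summed to 0.0568% ± 0.0241 in LFC and 0.131% ± 0.118 in HFC, over ranges of 0.0326% to 0.106% and of 0.0217% to 0.35%. Most of this sum was VIM (means of 325 and 657 CPM in LFC and HFC) and CRYM (116 and 526 CPM). GFAP (17.3 and 64.3 CPM), RAX (0.588 and 8.1 CPM), COL25A1 (0.956 and 10.5 CPM) and SLC1A3 (5.25 and 6.06 CPM) were also higher in HFC on average. AQP4 (20.5 and 19.3 CPM) and DIO2 (106 and 84.5 CPM) were lower. Of the 8 markers tested, 6 were higher in HFC, the median log2 fold change was 1.46, and 0 were called. GFAP ranged from 0.504 to 234 CPM, and the lowest level of RAX was 0 CPM in both groups. HFC replicate 14 stood apart in skeletal muscle transcripts. The 9 genes of a muscle list that had a count row made up 4.59% of its counts, against 0.00108% to 0.00235% in the other 15 libraries.

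No member passed the test of HFC against LFC, and every difference was within the spread between pigs. With edgeR's quasi-likelihood test, 0 of 52 members were called at an adjusted p of at most 0.05 and a fold of at least 1.3, and the share called over all 14319 genes tested was 0%. No member reached an unadjusted p under 0.05, compared with 834 genes in all (5.82%), of which 219 were lower in HFC (1.53% of those tested). DESeq2 called 20 of 19572 genes (0.102%) at the same thresholds and 0 members. In a homogenised gland, fewer cells of a type and less RNA per cell cannot be told apart.

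The log2 fold changes of the members (HFC over LFC) were small and most shared a sign. They were below 0 for 48 of 52 members, compared with 51.6% of all genes, with a median of -0.12 against -0.01 over all genes tested. The range ran from -0.31 for RPLP2 to 0.12 for RPS27L. All 52 members passed the filter on low counts. For 47 members the 95% interval of the change lay within 2-fold either way, and for 1 member, RPL15, it lay within 1.3-fold, so for most members a change of 1.3-fold could not be told from none at this spread.

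**Figure D1:**
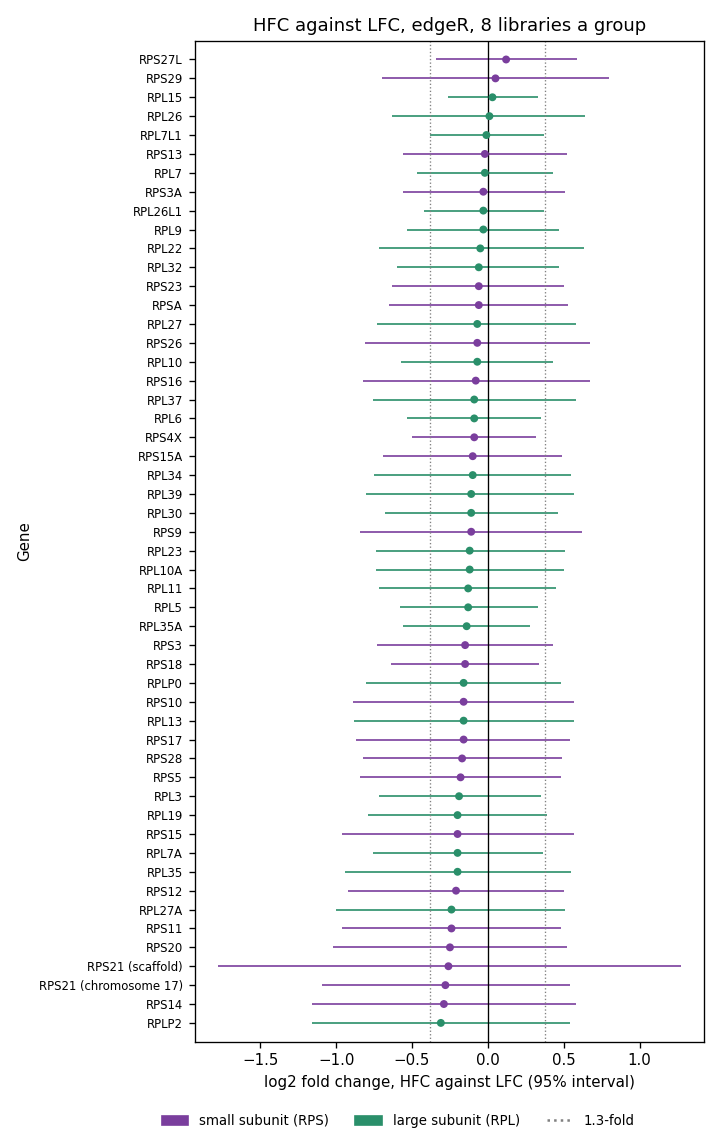
Log2 fold change of each of the 52 ribosomal protein genes in HFC against LFC (x axis, 0 is no change) with its 95% interval from edgeR, 8 libraries a group, coloured by subunit. Points run from -0.31 for RPLP2 to 0.12 for RPS27L, every interval crosses 0, and the widest belongs to RPS21 on the unplaced scaffold.

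The shared sign rested on 1 library. Without LFC replicate 5 the median log2 fold change was 0.24 and 2 of 52 members were lower in HFC. Without HFC replicate 13 it was -0.26 with 51 lower, and without LFC replicate 5, HFC replicate 13 and HFC replicate 14 it was 0.01 with 24 lower. RPS29 was the only member under an unadjusted p of 0.05 when LFC replicate 5 was left out (log2 fold change 0.56, edgeR adjusted p = 0.371).

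As a share of the library, the members took 3.95% ± 1.59 of the counts in LFC and 3.70% ± 1.10 in HFC (SD, n = 8 each). The lowest, median and highest shares were 2.69%, 3.59% and 7.73% in LFC and 2.35%, 3.47% and 5.71% in HFC. The groups overlapped over most of their range. LFC replicate 5 had the highest share (Wilson 95% interval 7.713% to 7.741%, counting error only), followed by HFC replicates 13 and 15 with 5.71% and 4.74%. The mean of HFC was lower by 0.254 percentage points (HFC minus LFC -0.254), and was 0.285 percentage points higher without LFC replicate 5.

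**Figure D2:**
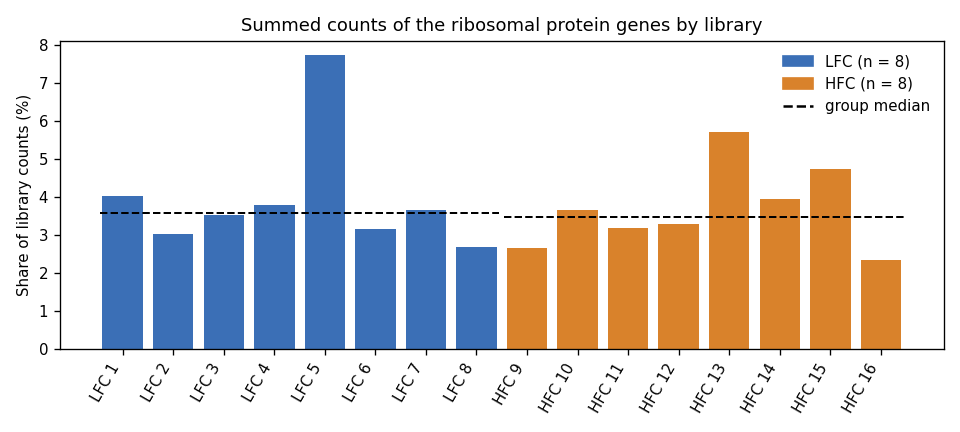
Share of each library's counts taken by the 52 ribosomal protein genes together (y axis, percent), 1 bar a library, with the group medians dashed (3.59% in LFC, 3.47% in HFC). LFC replicate 5 reaches 7.73% and HFC replicate 13 reaches 5.71%, while the other 14 libraries lie between 2.35% and 4.74%.

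The small and the large subunit varied together. Small subunit members took 1.74% ± 0.786 of the counts in LFC and 1.63% ± 0.512 in HFC, and large subunit members took 2.21% ± 0.803 and 2.07% ± 0.591 (SD, n = 8 each). Their ratio, large over small, had a mean of 1.29 over the 16 libraries. It was lowest in the libraries with the highest member shares, at 1.13 in LFC replicate 5, 1.22 in HFC replicate 13 and 1.24 in HFC replicate 15, and highest at 1.36 in LFC replicate 8. HFC minus LFC was -0.0142, which was smaller than the SD within either group (0.0727 and 0.0394).

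Across the 16 pigs the members varied as 1 block. Levels are given in CPM, counts scaled to a common library size with TMM factors, and compared as log2 CPM. For the 1326 pairs of members the median Pearson correlation over the 16 libraries was 0.95, compared with 0.00 over pairs of all genes tested, and 1067 pairs (80.5%) were above 0.9. The pairs share the same 16 libraries, their depth and their scaling, so these values describe the libraries and carry no p. The median was 0.97 within LFC, 0.95 within HFC and 0.79 within LFC without replicate 5. It was 0.87 without LFC replicate 5 and HFC replicate 13, the libraries farthest from the median of the member mean. High correlations were not particular to the members. Over the 16 libraries the median between pairs was 0.96 for other ribosomal protein genes and 0.84 for mitochondrial ribosomal protein genes. It was 0.79 for transcripts of the mitochondrial genome and 0.73 for other mRNAs with a terminal oligopyrimidine tract. The remaining lists lay between -0.08 and 0.37.

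Averaged over members, LFC replicate 5 was 1.44 above the 16-library mean on the log2 scale (2.72-fold). Next came HFC replicates 13, 15 and 14, with 0.75, 0.43 and 0.36. The lowest were HFC replicates 9 and 16, with -0.56 and -0.51, and LFC replicate 8, with -0.48. Both groups thus had libraries at the top and at the bottom of the order. In LFC replicate 5 all 52 members were above their own mean and 49 had their highest level, while 51 were above their mean in each of HFC replicates 13, 14 and 15. The lowest level of 27 members was in HFC replicate 9.

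**Figure D3:**
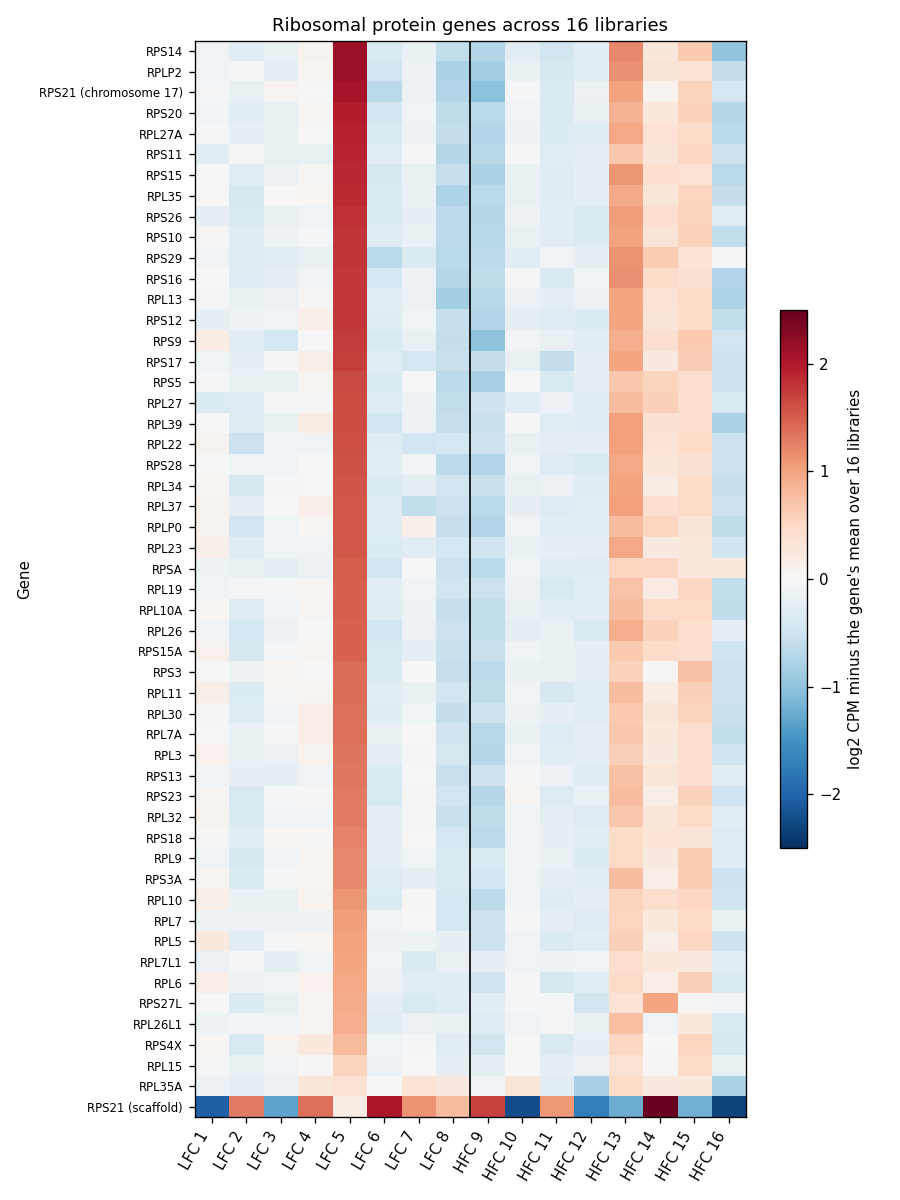
Log2 CPM of each ribosomal protein gene (rows) less its own mean over the 16 libraries (columns, LFC left and HFC right of the line), from blue (below) to red (above), with rows ordered by LFC replicate 5. LFC replicate 5 is red for nearly every gene, and the lowest row, RPS21 on the unplaced scaffold, has a pattern of its own.

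The size of this movement differed among members. RPS14 and RPLP2 moved most among the genes that followed the block. RPS14, at the decoding platform of the small subunit (ENSSSCG00000031370, chr2:151430039-151433856, build Sscrofa11.1), had lowest, median and highest levels of 300.0, 414 and 2050 CPM in LFC and of 234, 381 and 1060 CPM in HFC. LFC replicate 5 held the highest value and the other LFC libraries overlapped HFC. Its log2 fold change was -0.29 (SE 0.41, 95% interval -1.16 to 0.58, edgeR adjusted p = 1).

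RPLP2 codes for 1 of the acidic proteins of the ribosomal stalk, which recruits the GTPases that drive translation (ENSSSCG00000012842, chr2:507896-510700). It had lowest, median and highest levels of 464, 746 and 3550 CPM in LFC and 449, 685 and 1780 CPM in HFC. The highest values were in LFC replicate 5 and HFC replicate 13, and the rest of the groups overlapped. Its change was the farthest from 0 among the members at -0.31 (SE 0.40, 95% interval -1.16 to 0.54, edgeR adjusted p = 1). RPLP0, the base of the same stalk, had a log2 fold change of -0.16 and ranged from 773 to 3750 CPM over the libraries.

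RPS20 and RPS21 on chromosome 17, both of the small subunit, had log2 fold changes of -0.25 and -0.28. RPS20 had a lowest, median and highest level of 830.0, 1160.0 and 5040.0 CPM in LFC and 782, 1170.0 and 2350.0 CPM in HFC. The groups overlapped, and the highest LFC value was in replicate 5. In the large subunit, RPL7A, RPL3 and RPL19 had some of the smallest unadjusted p values of the members, at 0.456, 0.468 and 0.482. Their log2 fold changes were -0.20, -0.19 and -0.20, and each had a 95% interval that crossed 0.

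The steadiest member was RPL15, a core protein of the large subunit (ENSSSCG00000037030, chr13:10715998-10720037). Its lowest, median and highest levels were 521, 587 and 907 CPM in LFC and 529, 588 and 850.0 CPM in HFC. Its log2 CPM had an SD of 0.25 over the 16 libraries, compared with a median of 0.56 over members, and its log2 fold change was 0.03 (SE 0.14, 95% interval -0.26 to 0.33). Next were the paralogs RPL7L1 (SD 0.33) and RPL26L1 (SD 0.36). RPS14 and RPLP2, with SDs of 0.78 and 0.75, lay at the other end together with RPS21 on the unplaced scaffold.

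Members in LFC replicate 5 stood at a median of 3.16-fold the median of the other LFC libraries. The fold was 4.95 for RPS14, 4.90 for RPLP2 and 4.63 for RPS21 on chromosome 17, and it was 1.57 for RPL15, 1.29 for RPL35A and 0.52 for RPS21 on the scaffold. RPL5 and RPL11, which bind the 5S ribosomal RNA and can hold the p53 regulator MDM2, were at 2.17-fold and 2.98-fold. RPSA, the small subunit protein also known as a laminin receptor precursor, was at 3.17-fold. RPL26, at the exit tunnel for the new protein, was at 3.08-fold.

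Grouped by place in the ribosome, the 13 small subunit members along the path of the messenger RNA had a median log2 fold change of -0.16 and a median excess in LFC replicate 5 of 1.74 on the log2 scale. The 4 members at the exit tunnel had -0.16 and 1.56, and the pair bound to 5S ribosomal RNA had -0.13 and 1.19. The 3 X-linked members, RPS4X, RPL10 and RPL39, had -0.09 and 1.11. Members whose human counterparts are mutated in Diamond-Blackfan anaemia, an inherited failure to make red cells, numbered 11 and had -0.13 and 1.60. Every one of these groups lay above its mean in LFC replicate 5.

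The members that correlated best with the others were RPS10, RPL10A and RPL27A, each with a mean correlation of 0.94 over the 16 libraries. RPS10 lies at the head of the small subunit, and RPL10A forms the L1 stalk of the large subunit. RPS10 had a lowest, median and highest level of 408, 581 and 2230.0 CPM in LFC and 397, 548 and 1280.0 CPM in HFC. At the other end were RPS21 on the scaffold (-0.09), RPL35A (0.52) and RPS27L (0.74).

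RPS27L, a p53-inducible paralog of RPS27, was 1 of 4 members higher in HFC and had the highest log2 fold change, 0.12 (SE 0.22, 95% interval -0.34 to 0.59, edgeR adjusted p = 1). Its lowest, median and highest levels were 22.0, 25 and 54.7 CPM in LFC and 21.2, 28.2 and 57.7 CPM in HFC. The highest library was HFC replicate 14, the one with the muscle transcripts, and the next was LFC replicate 5. Whether muscle RNA adds to its level was not tested.

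RPL35A was listed at a locus of 443 bp with 1 transcript (ENSSSCG00000014910, chr9:19764883-19765325). Its lowest, median and highest levels were 7.13, 9.15 and 10.9 CPM in LFC and 4.74, 8.98 and 11.6 CPM in HFC. The groups overlapped, and LFC replicate 5, the highest of LFC at 10.9 CPM, was close to LFC replicate 7 at 10.8 CPM.

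RPS21, a small subunit protein, behaved differently at its 2 loci. On chromosome 17 (ENSSSCG00000021825, chr17:61763564-61764815) it ranged from 164 to 1400.0 CPM and followed the block. The second locus spans 345 bp on an unplaced scaffold (ENSSSCG00000002529) and fell into separate ranges. In 7 libraries it lay between 2.89 and 6.35 CPM, and in 9 libraries between 16.8 and 83.2 CPM, a 28.8-fold span from lowest to highest with a 2.65-fold gap between the ranges. The higher range held 6 LFC libraries (replicates 2, 4, 5, 6, 7 and 8) and 3 HFC libraries (replicates 9, 11 and 14). Over the 16 libraries the correlation between the loci was -0.25. The scaffold locus had lowest, median and highest levels of 3.5, 29.1 and 61.7 CPM in LFC. In HFC they were 2.89, 6.27 and 83.2 CPM, the last in replicate 14, and the groups overlapped. The log2 fold change of the scaffold locus was -0.26 (SE 0.72, 95% interval -1.78 to 1.27). How the counting divided reads between the loci is not known, and their sequences were not compared here, so both values are uncertain to that extent.

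**Figure D4:**
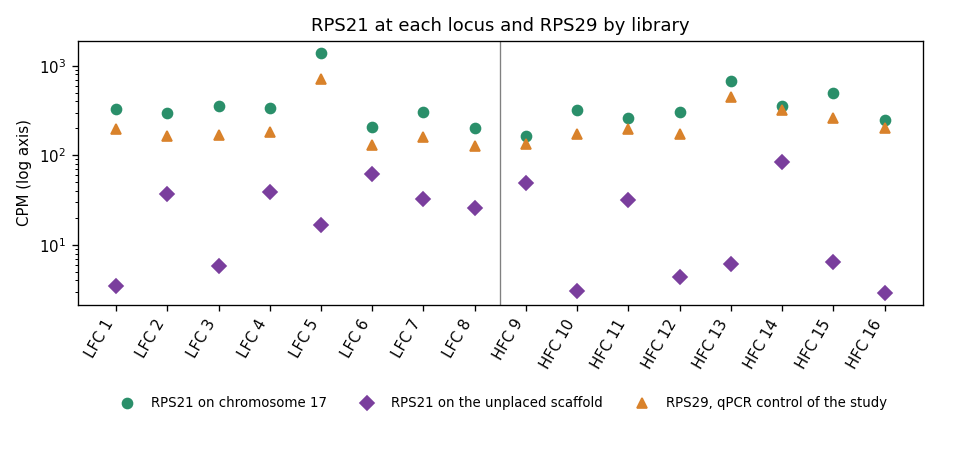
CPM (log axis) of RPS21 at its locus on chromosome 17, RPS21 on the unplaced scaffold and RPS29 in each of the 16 libraries, LFC left and HFC right of the line. The scaffold locus lies at 2.89 to 6.35 CPM in 7 libraries and at 16.8 to 83.2 CPM in 9, while the other genes peak together in LFC replicate 5 at 1400.0 and 708 CPM.

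RPS29, a zinc-binding protein of the small subunit (ENSSSCG00000038507, chr1:179454934-179456807), had a second role here as an endogenous control of the qPCR, with OAZ1, which codes for an inhibitor of ornithine decarboxylase. RPS29 had lowest, median and highest levels of 128, 167 and 708 CPM in LFC and 132, 198 and 452 CPM in HFC. The top values were in LFC replicate 5 and HFC replicate 13, and the groups otherwise overlapped. The difference in mean log2 CPM, HFC minus LFC, was 0.20 (two-sided exact permutation test over 12870 assignments, p = 0.566, adjusted over both controls 0.566). Between its highest and lowest library RPS29 differed 5.52-fold.

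OAZ1 had lowest, median and highest levels of 352, 419 and 744 CPM in LFC and 376, 406 and 760.0 CPM in HFC. Its difference was 0.11 (two-sided exact permutation test, p = 0.558, adjusted 0.566), and its highest and lowest libraries differed 2.16-fold. The SD of log2 CPM over the 16 libraries was 0.67 for RPS29 and 0.36 for OAZ1, above the SD of 78.3% and 38.8% of all genes tested. Without LFC replicate 5, the difference for RPS29 was 0.47 (exact permutation test, p = 0.0536). The test found no difference for either control, and without LFC replicate 5 the difference of OAZ1 was 0.22.

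Among the paralogs, RPL26L1, RPL7L1 and RPL22L1 varied less over the 16 libraries than their parent genes, with SDs of log2 CPM of 0.36, 0.33 and 0.43 against 0.57, 0.40 and 0.61. RPL36AL, listed at 2 loci, had SDs of 0.56 and 0.83 against 0.63 for RPL36A, and RPL3L had 1.66 against 0.49 for RPL3, with its highest count in HFC replicate 14. The log2 ratio of RPL26L1 to RPL26 was -3.21 ± 0.30 in LFC and -3.31 ± 0.32 in HFC (SD, n = 8 each), and it was -3.83 in LFC replicate 5. The ratio of RPL7L1, a protein of ribosome assembly, to RPL7 was -4.02 ± 0.17 and -3.99 ± 0.19. For RPL22L1 over RPL22 it was -2.37 ± 0.38 and -2.32 ± 0.20, with -3.18 in LFC replicate 5. The groups overlapped in all 3 ratios. Ratios of counts also depend on transcript length, which was not used here, so they say nothing of the absolute levels of the paralog and its parent.

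The movement of the members went together with the genomic span of genes in general. Genes that are no members were sorted into 5 classes by the distance from gene start to gene end. In LFC replicate 5 the median gene of the shortest class (up to 10.1 kb) was 0.75 above its 16-library mean on the log2 scale and the median gene of the longest class (over 88 kb) was 0.63 below (-0.63). In HFC replicate 13 the values were 0.40 and -0.39, and in HFC replicate 14 they were 0.20 and -0.21. LFC replicate 8, low in members, had -0.29 and 0.26. The span of 44 of 52 members was within the shortest class.

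On average, members moved farther than the short genes in the libraries at either end of the order. Over the 16 libraries the member mean correlated at 0.97 with the difference between short and long genes. With the deviation of short genes taken off in each library, the median correlation between members was 0.84. Most members moved farther than the value taken off, so part of the same trend stayed in them. In LFC replicate 5 this value was 0.75, while RPL15, RPL35A and RPS21 on the scaffold deviated by only 0.56, 0.37 and 0.18. The 0.84 is therefore no measure of a correlation beyond gene span. With the difference between short and long genes as a covariate, 0 members were called and the median log2 fold change was -0.10 with 44 of 52 lower. In that fit, added after seeing the data, 4 members had an unadjusted p under 0.05, all lower in HFC. They were RPL7A (log2 fold change -0.20), RPLP2 (-0.18), RPS12 (-0.16) and RPL19 (-0.17), with edgeR adjusted p values from 0.4 to 0.425. Over all genes 0 were called in that fit. The share of all genes with an unadjusted p under 0.05 was not computed there. The count of 4 thus has no background to be set against and is not read as a lower level in HFC. LFC replicate 5 also had the lowest TMM factor, 0.751. The part of RNA quality or library preparation in these values was not tested.

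**Figure D5:**
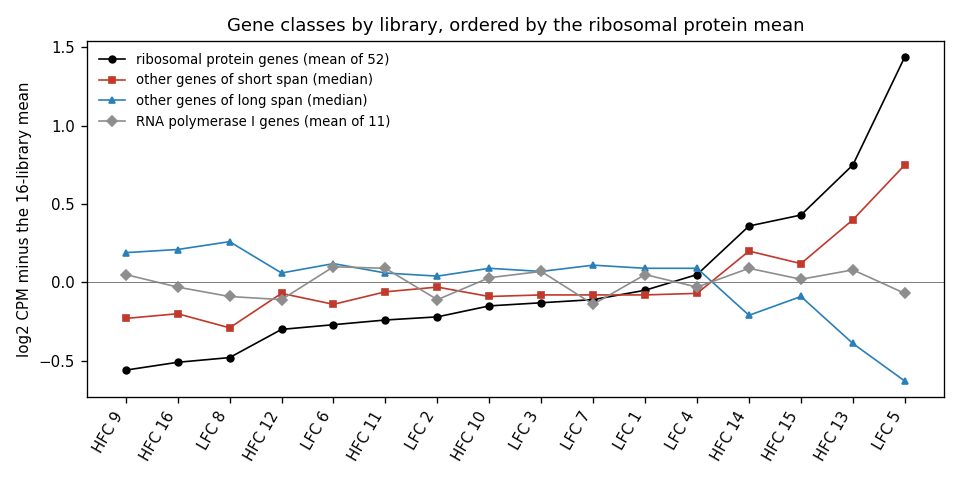
Log2 CPM less the 16-library mean (y axis) in each library, ordered from low to high ribosomal protein mean, for the 52 ribosomal protein genes (mean), for other genes of the shortest and longest genomic span (medians) and for 11 RNA polymerase I genes (mean). In LFC replicate 5 the values are 1.44, 0.75, -0.63 and -0.07.

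Other ribosomal protein genes behaved like the members. Of the 28 tested, 26 were lower in HFC with a median log2 fold change of -0.15, 0 were called, and 24 had a correlation above 0.9 with the member mean over the 16 libraries. For comparison, 960 of 14267 genes that are no members (6.73%) had a correlation above 0.9, and 896 (6.28%) had one below -0.9. RPS27A, a fusion of ubiquitin with a small subunit protein, had a log2 fold change of -0.21 and 845 to 3540.0 CPM. RPLP1, the partner of RPLP2 in the stalk, had -0.04 and 940.0 to 4350.0 CPM.

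The genes most like the member mean were RPL21 (0.995) and RPS19 (0.994), both ribosomal protein genes that the rule did not take. They were followed by STOML2 (0.993), which codes for a protein of the inner mitochondrial membrane, and by a pair of Ensembl genes that span RefSeq genes of ribosomal proteins. The first, named SYVN1 (0.993, chr2:7059462-7075171), covers 100% of the RefSeq span of FAU, a ubiquitin-like fusion to a small subunit protein. The second, unnamed (ENSSSCG00000033019, 0.992, chr1:267958456-267965555), covers 100% of the RefSeq span of RPL12. Counts for FAU and RPL12 themselves could not be separated from their neighbours.

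RPL3 lines the peptidyl transferase centre of the large subunit (ENSSSCG00000040494, chr5:8922653-8934282) and followed the block, with 653 CPM in its lowest and 2720.0 CPM in its highest library. A second Ensembl gene (ENSSSCG00000000089, chr5:8923674-8927953) lies inside its span and moved the opposite way. It was at 7.80 CPM in LFC replicate 5 and at 33.9 to 95.3 CPM in the other 15 libraries, and its correlation with the member mean was -0.77. It held from 0.286% to 8.39% of the counts of both genes. The libraries were not strand-specific, and how the counting divided reads between these overlapping genes is not known.

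Genes whose products work beside the ribosome moved with it in part. None of the 18 other mRNAs with a terminal oligopyrimidine tract had an unadjusted p under 0.05. In this list RACK1, a scaffold on the small subunit, correlated with the member mean at 0.98, NACA at 0.98 and EIF3F at 0.99. EEF2, the elongation factor that moves the ribosome along its message, was at -0.22, and PABPC1, the poly(A)-binding protein, at -0.38. In LFC replicate 5, EEF2 and PABPC1 were below their means (-0.24 and -0.35 on the log2 scale), while all 52 members were above theirs.

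Of 75 mitochondrial ribosomal protein genes tested, 0 had an unadjusted p under 0.05. Their median log2 fold change was -0.03, and their median correlation with the member mean was 0.94. Their median excess in LFC replicate 5 was 1.09 on the log2 scale, compared with 1.5 for members. Ribosome biogenesis genes (37 tested, median correlation 0.54) and RNA polymerase I genes (11 tested, 0.23) went both ways. In the first list 25 correlations were above 0 and 12 below, from -0.92 for HEATR1 to 0.98 for NOP10. In the second, 7 were above 0 and 4 below, from -0.89 for POLR1A to 0.96 for POLR1D. NCL and NPM1, which code for the nucleolar proteins nucleolin and nucleophosmin, were at 0.02 and -0.11 in LFC replicate 5. In the same library FBL, which codes for the rRNA methyltransferase fibrillarin, was at 1.55 and HEATR1 was at -1.93.

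An unadjusted p under 0.05 was reached by 2 of 37 ribosome biogenesis genes (5.41%) and by 1 of 11 RNA polymerase I genes (9.09%). Over all genes tested the share was 5.82%, so these counts are not read as a result about the lists. In both lists 0 genes were called. LTV1 at 1 of its loci, a small subunit assembly factor, had a log2 fold change of 0.50 (edgeR adjusted p = 0.652). RIOK1, a kinase of late small subunit assembly, had -0.22 (edgeR adjusted p = 0.845). TAF1D, of the RNA polymerase I initiation factor, had 0.44 (edgeR adjusted p = 0.612). None of the 15 TOR pathway genes had an unadjusted p under 0.05, and their correlations with the member mean went both ways. For 7 genes it was above 0, up to 0.81 for EIF4EBP1 and MLST8, and for 8 it was below 0, with MTOR itself at -0.88.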

How the data were processed

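Poly(A) RNA libraries (TruSeq v2, single reads, not strand-specific) of whole pituitaries were made and sequenced by the authors in technical repetitions, and the count table holds 1 column a pig. Per the labels and methods, reads were checked with FastQC, trimmed with Flexbar and aligned to Sscrofa11.1 with the Ensembl annotation (STAR, Bowtie 2), and genes were quantified with RSEM. The deposited counts are whole numbers for 25880 genes, and a results table that the authors deposited beside them gives gene names, positions and transcript numbers (other values). Its fold changes and p-values come from the authors' own comparison and were not used. The members and gene lists were chosen with earlier results of these data known.

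Counts were normalised by TMM and filtered with filterByExpr, which kept 14319 genes, removed 11561 and left all members. HFC and LFC (8 libraries each) were compared with edgeR 4.0.16 (quasi-likelihood test, R 4.3.3, Benjamini-Hochberg over all genes tested), with DESeq2 1.42.0 as an alternative. The script was tested on simulated data. Log2 CPM used a prior count of 2. RPS29 and OAZ1 were tested with an exact permutation test (scipy 1.17.1). Shares carry a Wilson 95% interval, for counting error alone. Of the 29 further ribosomal protein genes, 15 were named by a gene name table and 12 by RefSeq position (same assembly, overlap of at least 50%). The gene given the symbol SYVN1 carries that name from the same tables.

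Members named in the text were the controls of the qPCR, the 5 with the largest and smallest fold changes, the 5 with the smallest p, the 3 at each end of the spread and of the correlation, the stalk proteins, RPSA, and paralogs with their parents. A rule on counts per length could not be applied without transcript lengths. RPS12, the nested RPL3 gene, the muscle list and the further terminal oligopyrimidine genes were named after their values were seen, as were RPL5, RPL11, the X-linked RPS4X, RPL10 and RPL39, and genes of the other lists without an unadjusted p under 0.05. No pair of libraries within a group agreed within sampling noise (56 pairs, chi-square over degrees of freedom at least 27.1). Alternatives were other scalings, filters, DESeq2, leaving out libraries, and a gene span covariate.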

Additional observations from a re-analysis of the deposited data

Results flagged for a closer look

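Of 66 checks of a group for a library far from the others, 31 found one. For independent items chosen without sight of the data, chance would give about 3.3 (about 1 in 20 groups). LFC replicate 5 was that library in 28, and HFC replicate 14 in the other 3. Because the genes move together, these checks are not independent of each other. Some items were also chosen for their spread or correlation, or after their values were seen. The 3.3 is therefore no measure of chance for these checks.

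In LFC replicate 5 the ribosomal protein share was 7.73%, where the rest of LFC lay between 2.69% and 4.04%, the mean log2 deviation was 1.44 against -0.48 to 0.05, and the ratio of large to small subunit counts was 1.13 against 1.29 to 1.36. The small subunit genes were far above the other LFC libraries there, with log2 CPM of 9.47 for RPS29, 5.78 for RPS27L, 11 for RPS14, 10.45 for RPS21 on chromosome 17, 12.30 for RPS20, 11.12 for RPS10 and 10.20 for RPSA. Large subunit genes stood out likewise. Log2 CPM was 9.82 for RPL15, 10.53 for RPL26, 7.26 for RPL7L1, 12.01 for RPL7A, 11.41 for RPL3, 11.71 for RPL19, 6.70 for RPL26L1, 10.57 for RPL10A, 11.49 for RPL27A, 11.33 for RPL7 and 10.08 for RPL22. The stalk genes RPLP2 and RPLP0 were at 11.79 and 11.87, and RPL5 and RPL11 at 11.49 and 10.67. OAZ1 was at 9.54 against 8.46 to 8.84 and GAPDH at 11.75 against 10.43 to 10.85. The gene nested in RPL3 was the reverse case, at 2.99 against 6.14 to 6.58.

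In HFC replicate 14, RPL3L was at a log2 CPM of 7.03 against 0.24 to 1 in the other HFC libraries, GAPDH at 13.52 against 10.32 to 10.81, and the share of the muscle list at 4.59% against 0.00108% to 0.00171%.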

How the results depend on the processing

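No member was called under any of the alternatives that were run. The median log2 fold change of the members ranged from -0.26 to 0.24 when 1 library was left out, being above 0 without LFC replicate 5 only, with -0.04 when HFC replicate 9 was left out and -0.05 for HFC replicate 16, and was -0.09 with upper quartile scaling, -0.07 with total count scaling and -0.13 with DESeq2. Members with an unadjusted p under 0.05 numbered 0 to 1 when 1 library was left out, 1 without LFC replicate 5 and HFC replicate 14 (RPS29, log2 fold change 0.49) and 4 with gene span as a covariate. The cause was not tested. The difference in share, HFC minus LFC, ranged from -0.542 to 0.285 percentage points with 1 library left out, and was -0.0948 without LFC replicate 5, HFC replicate 13 and HFC replicate 14. The median correlation between members was 0.91 to 0.96 with 1 library left out and 0.93 with total count scaling. It was 0.84 with the short gene deviation taken off, which for most members removes only part of a component that they share. With 1 library left out, the ratio of the subunits ranged from 1.29 to 1.3, the difference of RPS29 from 0.06 to 0.47 and that of OAZ1 from 0.01 to 0.22. Over canonical subunit genes alone the ratio was 1.31. Genes of the other lists called numbered 0 throughout. DESeq2 called 20 genes where edgeR called 0. No paired analysis was possible because replicate numbers run from 1 to 16 and none is shared between the groups. At this spread between pigs the median 95% interval of a member ran from -0.73 to 0.50 on the log2 scale, with 48 to 53005 counts a member and library.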

Other observations

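RPL3L, the paralog of RPL3 that skeletal and cardiac muscle use in its place, was not a member but had the lowest p among the other ribosomal protein genes. It had 1272 counts in HFC replicate 14 and 13 to 31 counts in the other 15 libraries, or 130.0 CPM against 0.664 to 2.95 CPM. Its log2 fold change was 3.56 (edgeR adjusted p = 0.612), and -0.04 without that library. ACTA1, the actin of skeletal muscle, had 170967 counts in HFC replicate 14 and 24 to 166 counts elsewhere. GAPDH, a glycolytic enzyme, was at 11700.0 CPM there and at 1270.0 to 3450.0 CPM in the other libraries. Its log2 fold change was 0.62 over all libraries and -0.26 without HFC replicate 14. Muscle genes were chosen after their values were seen, and all 9 with a count row were highest in that library. RPL10L, a paralog expressed in the testis, had no counts in any library.

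Transcripts of the mitochondrial genome, whose products are made by the mitochondrial ribosome, were higher in HFC for all 13 genes tested, with a median log2 fold change of 0.71. An unadjusted p under 0.05 was reached by 10 of them (76.9%), compared with 5.82% of all genes tested, and 0 were called. Their share of counts was 3.17% ± 0.87 in LFC and 4.86% ± 1.47 in HFC (SD, n = 8 each). Their median correlation with the ribosomal protein mean was -0.32, with 9 genes below 0 and 4 above, from -0.79 for ND4L to 0.39 for COX2. HFC replicate 16 had the highest share, 8.03%, together with the lowest ribosomal protein share, 2.35%, and with 22.0% of its counts in POMC, the precursor of adrenocorticotropin.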
